A study of Homo sapiens with 9 samples.

Results

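The methyltransferase PRMT5 and its partner MEP50 work as one complex, and the data compared here set the loss of one against the loss of the other. A549, an established human lung adenocarcinoma line, carried a stable short hairpin RNA under puromycin selection in serum-containing medium. The hairpin was directed against PRMT5 in 3 libraries (PRMT5 knockdown), against MEP50 in 3 libraries (MEP50 knockdown) and against GFP, a gene that human cells lack, in 3 control libraries. The comparison used these 6 knockdown libraries of the 9 in the series, chosen by their labels alone, with the control libraries giving the reference level of each gene. All 9 libraries came from total RNA after rRNA depletion with a strand-keeping protocol, and the labels call the 3 of each group biological replicates. Each target is represented by 1 group, and its hairpin's sequence was not analysed here. Loss of a target, an action of its hairpin on other transcripts and a trait of the selected cell population therefore cannot be told apart.

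PRMT5 transfers methyl groups to arginines of histones H3, H4 and H2A, of spliceosomal Sm proteins and of many other proteins, and makes the symmetric form of dimethylarginine. MEP50, a WD-repeat protein encoded by WDR77, binds PRMT5 and presents substrates to it, and further adaptors (pICln, RIOK1 and COPRS) steer the complex to spliceosomal, ribosomal and histone substrates. In lung adenocarcinoma cells the complex has been studied for its part in invasion and in the response to TGF-beta, which is the question named in the title of the series.

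The hairpin targets were measured first as a check of the labels. PRMT5 read 70.1, 67.5 and 69.2 CPM (counts scaled to a common library size with the TMM method) in the PRMT5 knockdown libraries, 211, 199.7 and 200.4 in the MEP50 knockdown libraries and 212, 209 and 205 in the control libraries. WDR77 read 43.2, 46.9 and 42.1 CPM with the PRMT5 hairpin, 13.6, 10.7 and 13.3 with the MEP50 hairpin and 39.2, 39.6 and 39.3 in the control. Each target was low in its own group alone, and neither overlapped with the other knockdown. The 2 hairpins were about equally deep, leaving 33.1% of control PRMT5 RNA and 31.8% of control WDR77 RNA. The differences between the knockdowns (PRMT5 knockdown minus MEP50 knockdown, on a log2 scale, as for every difference given from here on) were −1.56 ± 0.035 for PRMT5 (SE, edgeR quasi-likelihood test, adjusted p = 2.56e-31) and 1.81 ± 0.0741 for WDR77 (edgeR adjusted p = 2.73e-22). Where levels are set against each other in what follows, those with the PRMT5 hairpin come first. These RNA levels do not show how much of either protein was left.

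**Figure D1:**
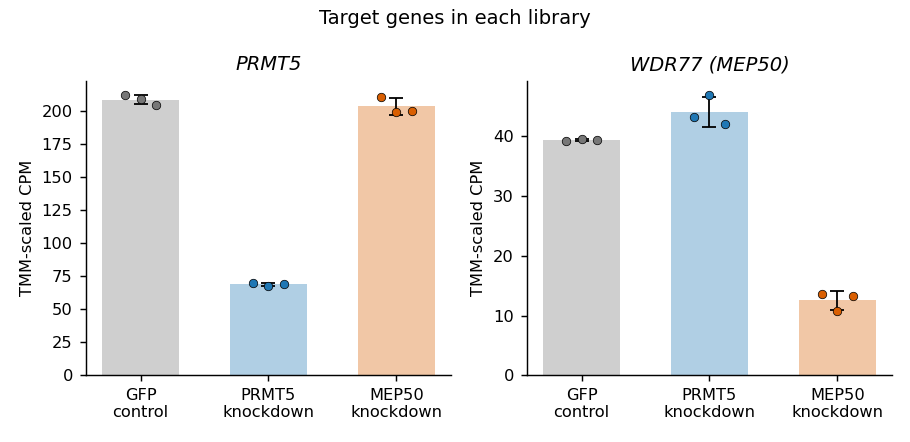
Levels of PRMT5 and WDR77 in the 9 libraries. The x axis gives the hairpin group and the y axis TMM-scaled CPM; points are libraries, bars are means and error bars are SDs (n = 3). PRMT5 lies at 67.5 to 70.1 CPM in its own knockdown and WDR77 at 10.7 to 13.6 CPM in its own, with the other groups far above.

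Of 14 tested members of the methylosome list, as the complex is called, 4 were higher and 2 lower in the PRMT5 knockdown, the targets included (42.9% called, against 39.7% of all tested genes). COPRS, which links the complex to histones, read 44.9, 42.8 and 41 CPM with the PRMT5 hairpin, 33.3, 31.4 and 26.5 with the MEP50 hairpin and 44.2, 46.2 and 42.8 in the control. Its MEP50 knockdown libraries were the low ones, without overlap (difference 0.51 ± 0.0659, edgeR adjusted p = 4.14e-08). CLNS1A, which encodes the Sm protein adaptor pICln, was likewise lower with the MEP50 hairpin, at 123, 123 and 117 CPM against 154, 149 and 159. RIOK1, the adaptor for ribosomal and other substrates, differed by 0.27 ± 0.0542 (edgeR adjusted p = 6.91e-05). Among the other arginine methyltransferases, PRMT1, which makes most asymmetric dimethylarginine, was 0.18 higher in the PRMT5 knockdown, and CARM1 was 0.26 ± 0.0486 higher in the MEP50 knockdown (edgeR adjusted p = 4.89e-05). Neither PRMT1 nor CARM1 passed a test against a fold of 1.2.

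The libraries held 20806181 to 31586128 reads on genes, and libraries of one group differed by 3.32 to 4.62 times their sampling noise (chi-square per degree of freedom), so none was a repeat deposit. Epithelial keratins marked the cells in every group: KRT8 averaged 2099 CPM in the PRMT5 knockdown, 1915 CPM in the MEP50 knockdown and 3225 CPM in the control. KRT18 averaged 2112, 1988 and 3198 CPM in the same order, so both keratins were below control in both knockdowns. EPCAM had only 13 to 19 reads a group. Of 18 blood and endothelial markers 9 had 0 reads in all 9 libraries, CD3E and HBB among them, and PTPRC had 1 read in each group. PECAM1, also on this list, was not matched by name, so its reads were not examined. CD68, a lysosomal protein abundant in macrophages, was present, at 25.3, 21.8 and 22.3 CPM with the PRMT5 hairpin, 24.6, 28.2 and 27.9 with the MEP50 hairpin and 14.6 to 16.5 in the control. The list summed to 24 to 27.3 CPM in the PRMT5 knockdown, 25.9 to 29.5 with the MEP50 hairpin and 16.1 to 17.7 in the control. Of 14 fibroblast and stroma markers THY1 and FAP were at 0, while LUM had 54 reads with the PRMT5 hairpin, 558 with the MEP50 hairpin and 425 in the control. The part of such markers in the gene differences was not tested. Reads outside annotated genes made up 14.4%, 14.5% and 13.7% with the PRMT5 hairpin, 13.8%, 13.4% and 12.3% with the MEP50 hairpin and 11.9% to 12.4% in the control. The 2 knockdowns overlapped in this share (exact permutation test, two-sided, p = 0.2, with 0.1 the smallest that 3 against 3 allows), and its part in the gene differences was not tested.

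The PRMT5 knockdown and MEP50 knockdown libraries differed in many genes, mostly by small steps. Of 14582 genes tested, 5787 differed between the knockdowns (39.7%, edgeR adjusted p below 0.05), 2796 of them higher (19.2%) and 2991 lower (20.5%) in the PRMT5 knockdown. The median size of these differences was 0.29, or 1.22-fold, and the median over all tested genes was 0.0012. Only 465 genes (3.19%) differed at least 2-fold, 224 higher and 241 lower, and 8 differed at least 8-fold. Tested against a fold of 1.2 in place of no change, 697 genes were higher and 779 lower. In 5420 of the 5787 genes (93.7%) the 3 libraries of one knockdown lay wholly above those of the other. These genes were called from the same libraries, so this separation is no separate support for the calls. The share over all tested genes was not counted. The share of genes called rose with their level, from 13.5% of genes under 1 on the log2 CPM scale to 63.1% of genes above 7. In bulk RNA, fewer cells with a transcript and less transcript per cell cannot be told apart, which holds for every difference given here.

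**Figure D2:**
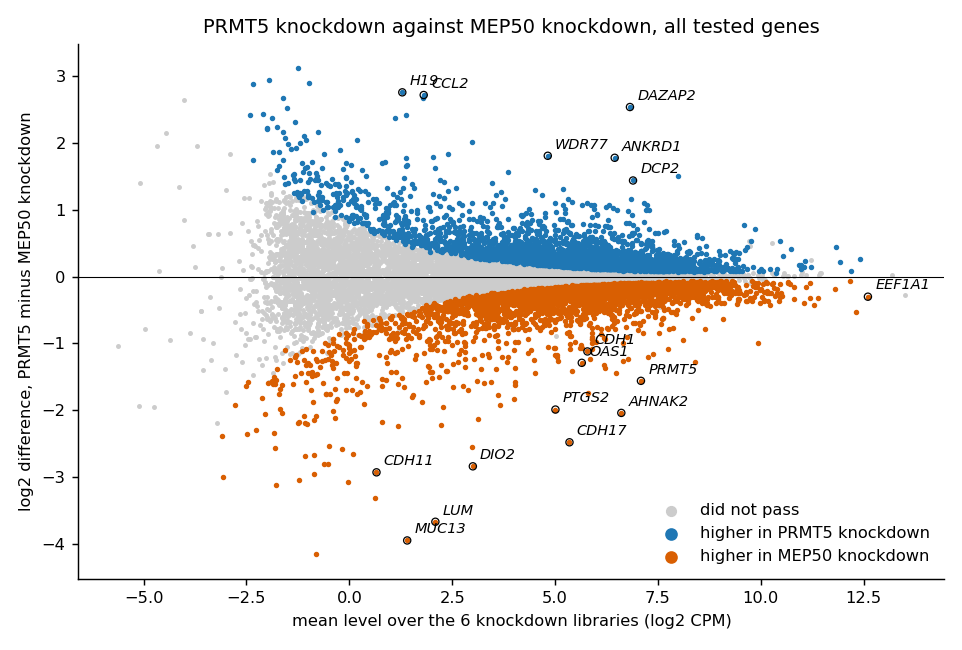
Difference between the knockdowns by level for all 14582 tested genes. The x axis is the mean log2 CPM over the 6 knockdown libraries and the y axis the log2 difference, PRMT5 minus MEP50 knockdown; coloured points passed the test (2796 above 0 and 2991 below) and named genes are circled. Most coloured points lie close to 0, and DAZAP2, AHNAK2, CDH17 and ANKRD1 stand out among well expressed genes.

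Among the 12 genes with the largest excess in the PRMT5 knockdown were CCL2, PTX3 and BCL2A1. CCL2, a chemokine for monocytes, read 5.6, 6.06 and 6.5 CPM with the PRMT5 hairpin against 1.06, 1.26 and 0.528 with the MEP50 hairpin and 0.918, 0.944 and 1.05 in the control. The MEP50 knockdown lay on the control and the PRMT5 knockdown above both (6.57-fold between the knockdowns, edgeR adjusted p = 8.34e-13). PTX3, a soluble pattern-recognition protein, read 6.63, 6.39 and 4.86 CPM against 1.26, 0.655 and 0.881, a 6.40-fold difference (edgeR adjusted p = 6.87e-12). BCL2A1, an antiapoptotic BCL2 relative, was at 3.63, 3.26 and 3.94 CPM against 0.918, 0.421 and 0.74, and at most 0.109 in the control. The MEP50 hairpin also raised BCL2A1 above control, by 3.42 on the log2 scale (edgeR adjusted p = 3.52e-06). SERPINF1, which encodes the antiangiogenic factor PEDF, reached 364% of its control with the PRMT5 hairpin and 99.4% with the MEP50 hairpin (difference 1.84 ± 0.169, edgeR adjusted p = 9.14e-12). DIRAS2, a small Ras-like GTPase, was 2.04 higher and CCDC78, a protein of centriole amplification, 1.79 higher with the PRMT5 hairpin.

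Other genes of that set were lowest in the MEP50 knockdown, below the control. H19, an imprinted long noncoding RNA, fell below control in both knockdowns, but further with the MEP50 hairpin: 0.387, 0.748 and 0.705 CPM against 4.26, 4.52 and 4.01 with the PRMT5 hairpin and 31.8, 32.3 and 28.8 in the control. All 3 groups were apart, and the knockdowns differed 6.79-fold (edgeR adjusted p = 1.25e-14). INHBB, the beta-B subunit of activin and inhibin, kept 82.3% of its control with the PRMT5 hairpin and 19.8% with the MEP50 hairpin, a difference of 2.02 ± 0.137 (edgeR adjusted p = 1.78e-15). SUSD2, a membrane protein of epithelial and stem cells, read 3.91, 3.58 and 4.58 CPM against 1.64, 0.888 and 1.02, with 9.61 to 9.92 in the control.

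The clearest single contrast of this kind was DAZAP2, a small proline-rich adaptor protein. It read 201, 195 and 184 CPM in the PRMT5 knockdown and 207, 203 and 194 in the control, but 29.8, 34.1 and 35.5 in the MEP50 knockdown. The PRMT5 knockdown lay within the range of the control or just below it, and the MEP50 knockdown kept 16.4% of control (difference 2.54 ± 0.0467, edgeR adjusted p = 3.2e-32). DCP2, the mRNA decapping enzyme, showed the same layout, with 177, 179.8 and 164 CPM against 62.5, 60.2 and 68.7 and a control of 176, 177 and 168. CPEB1, a cytoplasmic polyadenylation factor, was at 4.46, 4.13 and 4.61 CPM against 0.773, 0.608 and 1.02. YWHAG, a 14-3-3 protein singled out after its values were seen because no gene had a smaller p, read 383, 375 and 372 CPM against 138, 129 and 131, with 412, 421 and 417 in the control. These 4 RNAs kept 16.4% to 36.8% of control in the MEP50 knockdown, where WDR77 kept 31.8%, and 90.4% to 99.9% in the PRMT5 knockdown. CIDEC, a lipid droplet protein, was a gene of the other direction, at control with the PRMT5 hairpin and higher with the MEP50 hairpin (difference −1.60 ± 0.255, edgeR adjusted p = 2.14e-06).

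The 12 genes with the largest deficit in the PRMT5 knockdown were led by MUC13 and LUM and held 2 cadherins. MUC13, a transmembrane mucin of gut and airway epithelium, read 0.355, 0.194 and 0.41 CPM with the PRMT5 hairpin, 4.78, 4.77 and 5.39 with the MEP50 hairpin and 4.47, 3.74 and 5.4 in the control. The MEP50 knockdown overlapped the control, and the PRMT5 knockdown was the only low group (15.5-fold, edgeR adjusted p = 9.23e-16). CDH17, an intestinal cadherin, was at 13.2, 11.5 and 12.5 CPM against 66.7, 68.5 and 72.1, with the control between them at 22.1, 22.7 and 25. The knockdowns thus lay on opposite sides of control, at 53.3% and 297% of it (difference −2.48 ± 0.0675, edgeR adjusted p = 3.03e-28). AHNAK2, a giant scaffold protein, read 36.7, 38.7 and 39.4 CPM against 157 in each MEP50 knockdown library, with 95.9 to 102 in the control. CDH11, a mesenchymal cadherin, was near 0 in the control (at most 0.109 CPM) and reached 0.355, 0.387 and 0.347 CPM with the PRMT5 hairpin and 2.66, 2.85 and 2.89 with the MEP50 hairpin. EPS8L3, a relative of an actin-bundling receptor substrate, and ANKS4B, a scaffold of the brush border, differed by −2.66 and −2.13.

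Of these genes TM4SF4 and SCARA5 fell in both knockdowns and were lower with the PRMT5 hairpin. TM4SF4, a tetraspan membrane protein, read 1.97, 1.65 and 1.36 CPM against 7.88, 7.01 and 8.07, and 24, 26.7 and 25.7 in the control. SCARA5, a ferritin receptor, kept 7.18% of its control with the PRMT5 hairpin and 34.4% with the MEP50 hairpin (difference −2.24 ± 0.215, edgeR adjusted p = 2.83e-11). The control libraries stood above both knockdowns for both genes. EMP1, an epithelial membrane protein, rose in both instead, to 0.671, 0.581 and 0.631 CPM against 2.51, 2.9 and 3.14, from 0.202 to 0.29 in the control.

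**Figure D3:**
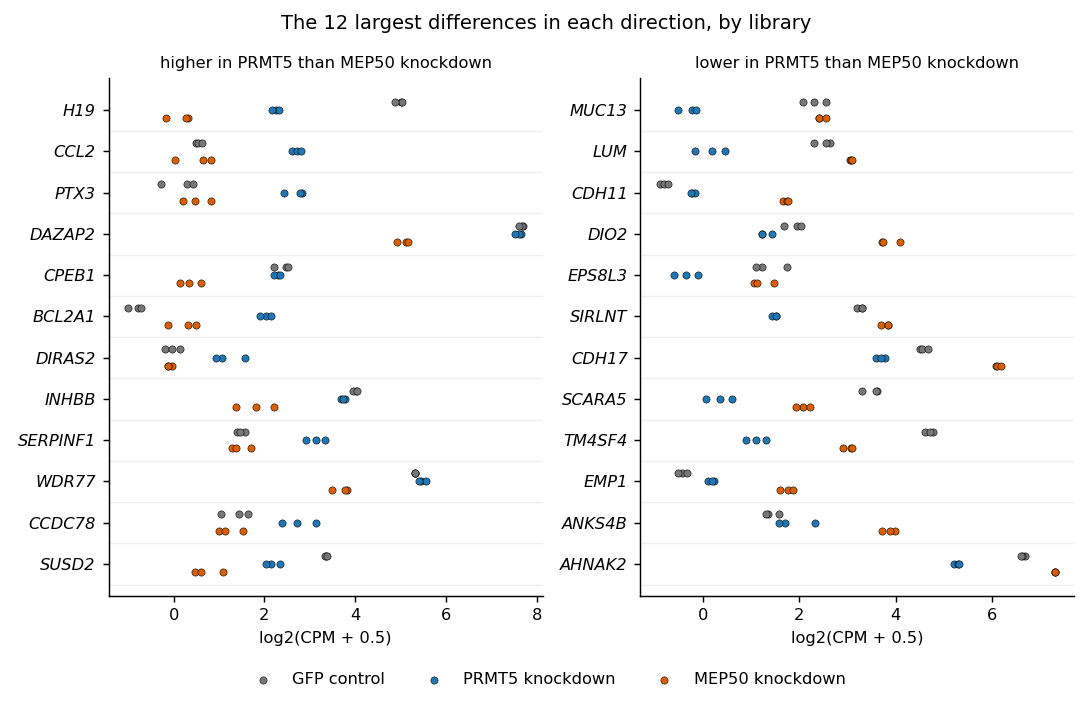
The 12 genes with the largest differences in each direction, by library. The x axis is log2(CPM + 0.5) and each row is a gene with its 3 control, 3 PRMT5 knockdown and 3 MEP50 knockdown libraries as points. For DAZAP2, CPEB1 and WDR77 the MEP50 knockdown stands apart from both other groups; for MUC13, LUM and EPS8L3 the PRMT5 knockdown does.

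Some genes moved away from control in opposite directions, judged by control libraries that lay wholly between the knockdowns. ANKRD1, a nuclear cofactor and a much used target of the YAP pathway, read 134, 131 and 139.8 CPM with the PRMT5 hairpin, 64, 67.1 and 69.3 in the control and 45.1, 37.2 and 36.3 with the MEP50 hairpin. It stood at 202% of control in one knockdown and 59.2% in the other (difference 1.78 ± 0.0544, edgeR adjusted p = 3.66e-23). CMTM3, a membrane protein of the chemokine-like family, ENC1, an actin-binding protein, and IL11, an interleukin-6 family cytokine, had the same order, with differences of 1.31, 1.23 and 1.22. The reverse order was led by LUM, which encodes the matrix proteoglycan lumican: 0.868, 0.387 and 0.631 CPM with the PRMT5 hairpin, 5.71, 5.36 and 4.46 in the control and 7.73, 7.9 and 8.07 with the MEP50 hairpin. DIO2, which activates thyroid hormone, was at 60.8% and 436% of control, and SIRLNT, a long noncoding RNA, at 2.19 to 2.37 and 12.4 to 13.9 CPM. Both contrasts with control share the same 3 control libraries.

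Ribosome genes split into 2 groups that went opposite ways. Of 82 tested cytosolic ribosomal protein genes, 73 were lower and none higher in the PRMT5 knockdown, with a median of −0.25, against 20.5% lower among all tested genes. Calls were more frequent among abundant genes: of 1810 tested genes above 7 on the log2 CPM scale, 619 were lower and 524 higher. Of 51 genes of ribosome biogenesis, which make and process ribosomal RNA in the nucleolus, 43 were higher and none lower, with a median of 0.19, against 19.2% higher among all. The steps were small: against a fold of 1.2, 23 ribosomal protein genes were lower and 4 biogenesis genes higher. Over all 14582 tested genes that test left 697 higher and 779 lower. In the individual libraries the median level of the ribosomal protein list, relative to its mean over the 9 libraries, was −0.13, −0.14 and −0.12 with the PRMT5 hairpin, 0.12, 0.15 and 0.11 with the MEP50 hairpin and −0.01 to 0.0091 in the control. The control thus lay between them. The biogenesis list was at 0.11, 0.10 and 0.14 against −0.01, −0.12 and −0.09, with the control at −0.04 to −0.02, inside the MEP50 knockdown's range.

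RPL27, a large-subunit protein, read 376, 381 and 352 CPM with the PRMT5 hairpin and 499, 523 and 479 with the MEP50 hairpin, with 437 to 459 in the control. RPL29 was at 356, 364 and 337 CPM against 479.5, 478 and 469, and the paralog RPL22L1 at 104, 94.1 and 109 against 146, 152 and 150.1. In all 3 genes the MEP50 knockdown libraries were the higher, and the differences were −0.44, −0.43 and −0.55. EEF1A1 and EEF2, named for their large differences in CPM, were lower as well. EEF1A1, the elongation factor that brings aminoacyl-tRNA to the ribosome, read 5544, 5594 and 5592 CPM against 6774, 6877 and 6977, and EEF2, the translocation factor, 2126, 2075 and 2168 against 2791, 2956 and 2842. RPS2, a small-subunit protein, had a difference of −0.32 ± 0.0308 (edgeR adjusted p = 3.34e-09). Against a fold of 1.2, EEF1A1 and RPS2 did not pass. Ribosomal protein genes have many processed copies in the genome, and reads shared with a copy may have been left uncounted.

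On the biogenesis side, NOP58, a core protein of box C/D small nucleolar ribonucleoproteins, read 189, 195 and 198 CPM against 123, 116 and 116, with 170.5 to 175 in the control (difference 0.71 ± 0.0341, edgeR adjusted p = 4.19e-20). GAR1, a core protein of the box H/ACA particles, was at 48.6, 46.1 and 43.6 CPM against 34.4, 31.1 and 32. PPAN, a maturation factor of the large subunit, was at 4.66, 4.1 and 4.54 against 3.04, 3.32 and 2.68, and its call was lost without the third MEP50 knockdown library (edgeR adjusted p = 0.0593). FBL, the methyltransferase of the box C/D particle, did not pass, at 277, 273 and 276 against 271, 291 and 281 CPM. Among 91 tested small nucleolar RNA genes 11 were higher and 2 lower in the PRMT5 knockdown (14.3% called, against 39.7% of all tested genes). All 11 differed by at least 2-fold, but most were near 1 CPM. Their short RNAs lie in introns of host genes and reads of the host cannot be set apart from theirs.

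Messenger RNAs of ribosomal proteins and elongation factors typically begin with a C followed by an unbroken run of pyrimidines, the 5′ terminal oligopyrimidine tract. The start windows of the genes named above are printed to show which of them carry it at the annotated start, as RefSeq gives it (GRCh38.p14; each is 15 bases before and 15 from the first base of the gene, 5′ to 3′ on the gene's strand, with the tract in capitals). RPL29 is at chr3:51995881-51995910, RPL22L1 at chr3:170870181-170870210, EEF2 at chr19:3985449-3985478 and EEF1A1 at chr6:73521018-73521047, all on the minus strand. RPL27 is at chr17:42998404-42998433, GAR1 at chr4:109815495-109815524 and PPAN at chr19:10106208-10106237, all on the plus strand.
RPL29: caccgcagcccctttCTCTTCCggttctag
RPL22L1: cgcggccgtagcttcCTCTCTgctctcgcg
EEF2: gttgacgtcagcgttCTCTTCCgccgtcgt
EEF1A1: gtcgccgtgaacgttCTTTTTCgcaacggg
RPL27: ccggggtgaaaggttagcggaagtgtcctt
GAR1: gtgctgcaaaggacgccgctgttatacgtc
PPAN: tagaaacaggcacccgtgtctccatagcaa
A tract was counted where the first base was C and at least 4 pyrimidines followed it, on the gene's own strand. It was found in 44 of 66 ribosomal protein genes with a RefSeq window (66.7%), in 3 of 45 biogenesis genes (6.67%), in 569 of 10404 tested genes (5.47%) and in 1104 of all 27305 windows (4.04%). Ribosomal protein genes with the tract had a median difference of −0.29 and those without it −0.24. Outside the ribosomal protein list, 525 tested genes carried it. Of these 92 were higher and 156 lower in the PRMT5 knockdown, against 19.2% higher and 20.5% lower among all tested genes. That background includes genes without a RefSeq window and genes that are not protein-coding. Of 12152 tested protein-coding genes 2600 were higher and 2809 lower. The median of these 525 genes was −0.03, against 0.00 for genes without the tract. A tract at an annotated start is a description of the sequence, and RPL27 shows that a gene of the class can lack it at the start RefSeq uses.

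Genes of the mitochondrial ribosome did not follow the cytosolic ones. Of 73 tested, 13 were higher and 14 lower (37% called, against 39.7% of all tested genes), with a median of −0.0013, and without the second or the third PRMT5 knockdown library 9 were lower. A pair of them differed strongly and in opposite directions. MRPL24 read 35.5, 32.7 and 33.9 CPM with the PRMT5 hairpin against 83.2, 80.9 and 77 with the MEP50 hairpin and 73.5 to 80.5 in the control. MRPL17 read 78.5, 80.5 and 79.6 against 38.1, 33.6 and 40.9, with 75.7 to 81 in the control. Each was thus below control in one knockdown only, MRPL24 with the PRMT5 hairpin and MRPL17 with the MEP50 hairpin.

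Targets of the tumour suppressor p53, which A549 carries in wild-type form, were mostly lower in the PRMT5 knockdown than in the MEP50 knockdown: 24 of 37 tested were lower and 3 higher (64.9% and 8.11%, against 20.5% and 19.2% of all tested genes), with a median of −0.28. CDKN1A, which encodes the cell cycle inhibitor p21, read 97.6, 92.5 and 92.6 CPM with the PRMT5 hairpin, 149, 173 and 168 with the MEP50 hairpin and 100 to 105 in the control. The PRMT5 knockdown was just below control and the MEP50 knockdown above it (difference −0.80 ± 0.0422, edgeR adjusted p = 4.14e-18). BBC3, the proapoptotic factor PUMA, was at 7.73, 7.39 and 5.71 CPM against 11.5, 13.2 and 10.7, and TP53INP1, a p53 cofactor of stress and autophagy, at 11, 12.7 and 10.9 against 18.8, 19.4 and 21.1. The 3 members that were higher were the death receptor genes TNFRSF10A and TNFRSF10B and the stress kinase gene PLK2. The list's median level was −0.07, −0.05 and −0.07 in the PRMT5 knockdown libraries, 0.20, 0.18 and 0.21 in the MEP50 knockdown and −0.16 to −0.10 in the control, so the MEP50 knockdown was the group farther from control.

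Other regulators of cell number differed as well. CDKN1B, the cell cycle inhibitor p27, read 35.3, 39.9 and 39.4 CPM with the PRMT5 hairpin, 79.4, 81.1 and 83.2 with the MEP50 hairpin and 95.7 to 102 in the control, and so was lower in the PRMT5 knockdown without overlap (difference −1.09 ± 0.0484, edgeR adjusted p = 4.13e-21). BCL2L11, the proapoptotic BH3 protein BIM, was at 11.6, 11.6 and 11 CPM against 21.8, 23.2 and 22.8. Mitotic genes were more often lower than higher (18 against 5 of 46, 50% called), by at most 0.38, and G1/S and replication genes were divided (20 higher and 12 lower of 52, 61.5% called), against 39.7% called among all tested genes. The G1/S cyclins CCNE1 and CCNE2 were 0.49 and 0.61 higher in the PRMT5 knockdown. CCNE1 was below control in both knockdowns, at 69.6% and 49.5% of it. CCNE2 stood at 106% of control with the PRMT5 hairpin and 69.4% with the MEP50 hairpin. MYC, a driver of growth and of ribosome synthesis, was at 100.4, 100.2 and 102 CPM against 80.4, 78.7 and 76, with 95 to 101 in the control.

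Genes of the amino acid and unfolded protein response, many of them induced by the transcription factor ATF4, were lower in the PRMT5 knockdown in 25 of 38 cases and higher in 3 (65.8% and 7.89%, against 20.5% and 19.2% of all tested genes), with a median of −0.17. DDIT4, an inhibitor of mTORC1 signalling, read 207, 198 and 186 CPM against 429, 513 and 497, with 249.9 to 269 in the control. MTHFD2, a mitochondrial enzyme of one-carbon metabolism, read 301, 294 and 287 against 488, 516 and 514, with 326 to 331 in the control. For both the MEP50 knockdown was above control and the PRMT5 knockdown slightly below it. CHAC1, which degrades glutathione, differed by −1.23 ± 0.16 (edgeR adjusted p = 1.17e-07), and ASNS, asparagine synthetase, was above control in both knockdowns, at 156, 148 and 151 against 226, 238 and 238 CPM. SLC7A11, the cystine transporter, was one of the 3 exceptions, at 421, 436 and 396 against 326, 322 and 338. Of 20 aminoacyl-tRNA synthetases, which load tRNAs, 11 were lower and 3 higher (70% called).

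Chemokines, cytokines and their NF-kB regulators had a median difference of 0.64 over 23 tested genes, of which 11 were higher and 2 lower in the PRMT5 knockdown (56.5% called, against 39.7% of all tested genes). That median ranged from 0.30 to 0.66 over the alternative analyses. Beside CCL2 and PTX3, CXCL8, the neutrophil chemokine interleukin-8, was at 2.96, 2.1 and 3.22 CPM against 1.26, 0.982 and 0.387, and near its control (3.11, 3.78 and 4.02) in the PRMT5 knockdown. LIF, an interleukin-6 family cytokine, was at 104, 100.4 and 101 CPM against 51.8, 49.1 and 47.3, with 106 to 116 in the control. NFKB2, the precursor of a subunit of noncanonical NF-kB, read 143, 147 and 142 CPM against 83.1, 66.8 and 69.2, with 107 to 109.6 in the control. The excess in the PRMT5 knockdown was thus a rise above control for CCL2 and PTX3 and a fall below control with the MEP50 hairpin for LIF and CXCL8, while NFKB2 lay on opposite sides of control.

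PTGS2, the inducible cyclooxygenase COX-2, was the large exception in that list. It read 14, 11.7 and 13.2 CPM with the PRMT5 hairpin, 44.8, 57.2 and 52.3 with the MEP50 hairpin and 409, 412 and 416 in the control, so both knockdowns were far below control and the PRMT5 knockdown the lower (3.98-fold between them, edgeR adjusted p = 1.17e-11). OAS1, the sensor of double-stranded RNA, was at 27.9, 29.9 and 29.5 CPM against 70.1, 72.9 and 70.6, with 129.6 to 138 in the control. Of the 35 tested interferon-induced genes, OAS1 among them, 4 were higher and 8 lower (34.3% called, against 39.7% of all tested genes), with a median of −0.03. Without the second library of either knockdown, 5 were lower. Acute phase and complement proteins, made by the liver and by some lung cells, were lower in 8 of 14 and higher in 1 (64.3% called, median −0.28); ceruloplasmin (CP) read 7.73, 6.03 and 6 CPM against 11.9, 13.5 and 12.5, both far under a control of 224 to 237.

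**Figure D4:**
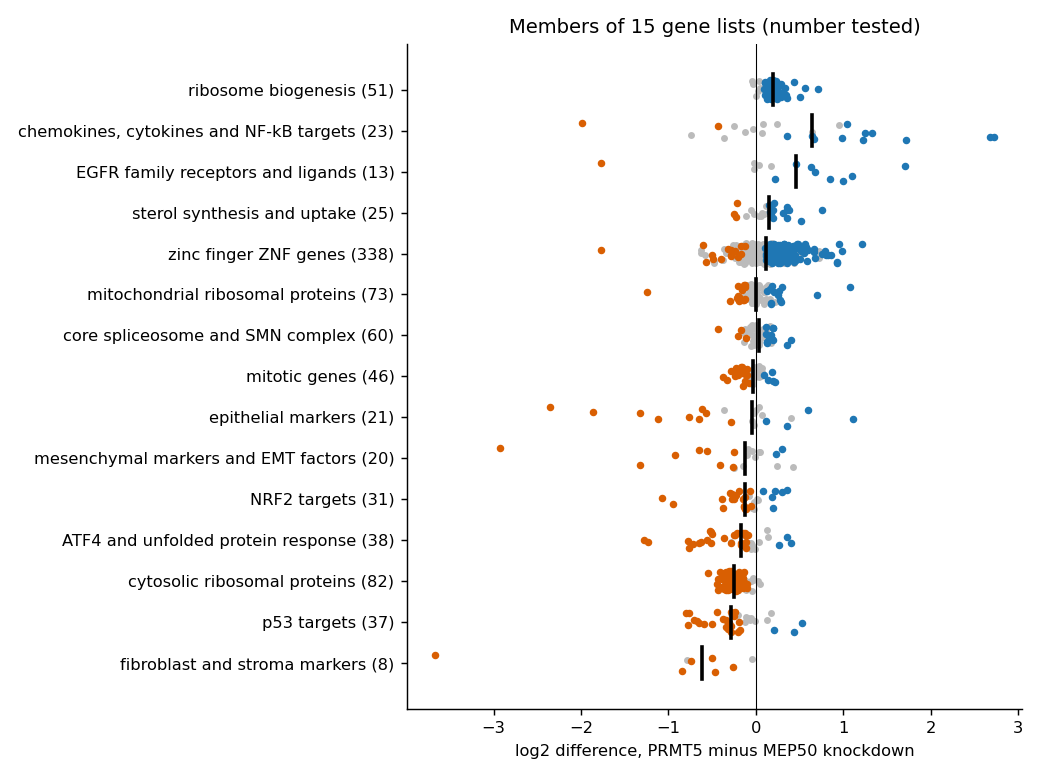
Members of 15 of the 48 gene lists. The x axis is the log2 difference, PRMT5 minus MEP50 knockdown; each point is a tested gene, coloured where it passed the test (blue higher, orange lower, grey did not pass), and black bars are medians. Ribosomal protein genes cluster tightly below 0 (median −0.25) and ribosome biogenesis genes above it (0.19), while epithelial and mesenchymal markers spread widely around medians of −0.05 and −0.12.

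Markers of epithelial and of mesenchymal state, which are read as opposites in studies of invasion, were both more often lower in the PRMT5 knockdown. Of 21 epithelial markers 9 were lower and 4 higher (median −0.05), and of 20 mesenchymal markers and transition factors 8 were lower and 2 higher (median −0.12). The lower shares were 42.9% and 40%, against 20.5% of all tested genes, and the higher shares 19% and 10%, against 19.2%. CDH1, epithelial cadherin, read 37.1, 32.3 and 35.3 CPM with the PRMT5 hairpin, 66.4, 77.3 and 83.1 with the MEP50 hairpin and 38.5 to 41.7 in the control. It was above control in the MEP50 knockdown only (difference −1.12 ± 0.0646, edgeR adjusted p = 2.42e-15). The tight junction genes TJP3 and CLDN7 were lower in the PRMT5 knockdown as well, by 1.33 and 1.86 on the log2 scale, while CLDN1, another junction gene, was higher, at 197, 194 and 199 CPM against 96, 88.9 and 88.6 and a control of 98.9 to 108. Among the mesenchymal genes, VIM, the filament protein vimentin, was at 1051, 1076 and 1116 CPM against 1266, 1301 and 1284, and CDH2, neural cadherin, at 156, 161 and 169.6 against 193, 186 and 203. Both were above control in both knockdowns (738 to 754 CPM for VIM and 99.2 to 112 for CDH2). For neither gene did the difference between the knockdowns pass a test against a fold of 1.2. SNAI2, a repressor of CDH1, stayed under 1 CPM in all groups, and its call was lost without the second or the third MEP50 or the second PRMT5 knockdown library and in DESeq2 (adjusted p = 0.0505).

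Adhesion and matrix genes differed as well. ITGA5, the fibronectin receptor chain, read 49.6, 47.5 and 53.1 CPM against 95.3, 95.9 and 93.9, with 84.5 to 88.2 in the control, and was thus below control in the PRMT5 knockdown alone (difference −0.92 ± 0.0449, edgeR adjusted p = 6.12e-20). PLAU, the urokinase protease, was above control in both and more so with the PRMT5 hairpin, at 114, 114 and 113 against 58.5, 54.2 and 54.5 CPM, with 25.7 to 29.7 in the control. Collagen chains were divided, 7 higher and 10 lower of 22 (77.3% called, against 39.7% of all tested genes). Of 8 tested genes on the list of fibroblast and stroma markers, 6 were lower and none higher in the PRMT5 knockdown, with a median of −0.62. They included LUM, above, and COL1A1, at 10.3, 10.1 and 10.8 CPM against 17.9, 19.6 and 18.7. Of the list's 14 members THY1 and FAP had 0 reads and DCN 1 read in all 9 libraries, and PDGFRB had 3 reads with the PRMT5 hairpin and 8 with the MEP50 hairpin. PDGFRA, a growth factor receptor of mesenchymal cells, had 26 and 36 reads and did not pass the test. The whole list summed to 463 to 481 CPM with the PRMT5 hairpin, 548 to 578 with the MEP50 hairpin and 249 to 266 in the control. COL3A1, COL5A1 and COL5A2 held most of its reads, at 18835, 6826 and 13390 with the PRMT5 hairpin. They had 18111, 7699 and 11176 reads with the MEP50 hairpin and 7955, 96 and 10987 in the control. The part of fibroblasts or stromal cells in the result was not tested.

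The TGF-beta pathway, named in the title of the series, held differences in both directions. Of 37 ligands, receptors and regulators 9 were higher and 7 lower (median 0.02; 43.2% called), and of 27 target genes 8 were higher and 10 lower (median −0.04; 66.7% called), against 39.7% of all tested genes. Among ligands, INHBB was higher in the PRMT5 knockdown, as given above, and TGFB2 read 72.5, 74.1 and 77.2 CPM against 36, 32.4 and 35.6, with 21.4 to 22.9 in the control. BMP2, a bone morphogenetic protein, was the reverse: 4.42, 4.16 and 4.39 CPM against 11.8, 14.4 and 12, with 5.55 to 8.58 in the control. BMP7, of the same family, was 1.60 ± 0.323 higher with the PRMT5 hairpin (edgeR adjusted p = 0.000101). LTBP1, which holds latent TGF-beta in the matrix, was at control with the PRMT5 hairpin (12.3, 11.9 and 13.6 CPM) and higher with the MEP50 hairpin (26.7, 31.1 and 26.5).

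Among the target genes, CCN1 and CCN2, matricellular proteins that also answer to YAP, were higher in the PRMT5 knockdown. CCN2 read 112, 111 and 102 CPM against 55.2, 49.9 and 48.8, and CCN1 206, 204 and 202 against 117, 85 and 89.6. The control was 49.3 to 54.6 for CCN2, level with the MEP50 knockdown, and 114 to 115 for CCN1, where 2 of the 3 MEP50 knockdown libraries were lower. TGFBI, a secreted adhesion protein, went the other way, at 101, 97.5 and 104 CPM against 182, 186 and 176, with 83.2 to 89.2 in the control. JUNB, an AP-1 subunit, was also higher in the MEP50 knockdown, by 1.07 ± 0.0603 (edgeR adjusted p = 6.22e-18). BMF, a proapoptotic BH3 protein, had 0.395, 0.484 and 0.568 CPM against 1.11, 1.92 and 1.02.

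In the EGF receptor family 7 of 8 tested ligands were higher in the PRMT5 knockdown while a receptor was lower. Of 13 tested receptors, ligands and inhibitors 8 were higher and 1 lower (69.2% called, against 39.7% of all tested genes), with a median of 0.46. EREG, the abundant ligand epiregulin, read 490, 489.7 and 444 CPM against 374, 323 and 338, with 462 to 480.5 in the control. HBEGF, heparin-binding EGF, was at 7.46, 9 and 8.17 CPM against 4.11, 4.16 and 5.32, and LRIG1, an inhibitor of these receptors, at 2.6, 2.48 and 2.87 against 0.725, 0.655 and 1.02. EGFR itself read 159.5, 165 and 166 against 158, 160.3 and 160 CPM and did not pass the test. ERBB3, the kinase-impaired receptor that pairs with ERBB2, was the 1 lower member, at 5.8, 5.81 and 5.11 CPM against 16.7, 20.5 and 19.5, with 9.5 to 10.2 in the control. For ERBB3 the knockdowns therefore lay on opposite sides of control. Genes of MAPK feedback and AP-1, downstream of these receptors, were higher in 15 and lower in 6 of 31 (67.7% called, median 0.13).

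Metabolic genes differed by pathway. In sterol synthesis and uptake 13 of 25 genes were higher and 3 lower in the PRMT5 knockdown (64% called, against 39.7% of all tested genes; median 0.15). INSIG1, which holds back sterol sensing, read 104, 97.3 and 89.5 CPM against 52.5, 61.5 and 57.8, below a control of 133 to 144 in both. FASN, fatty acid synthase, read 921, 916 and 957 against 694, 686 and 659, below a control of 1165 to 1185 in both. Most remaining genes of fatty acid synthesis leaned the other way, and the list held 3 higher and 10 lower of 19 (68.4% called). Its largest difference, 0.81 ± 0.0883 for ELOVL7, had the direction of FASN (edgeR adjusted p = 1.01e-09). ACACA was not matched by name and was not tested with the list.

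Targets of NRF2, the oxidative stress factor that A549 keeps constantly active, were lower in the PRMT5 knockdown in 19 of 31 cases and higher in 6 (61.3% and 19.4%, against 20.5% and 19.2% of all tested genes; median −0.12). AKR1C1, an aldo-keto reductase, read 188, 189 and 184 CPM against 369, 365 and 356, and its close paralog AKR1C2 1813, 1824 and 1838 against 2382, 2404 and 2383. Both were below control in both knockdowns (449 to 478 CPM for AKR1C1 and 3822 to 4039 for AKR1C2). The near-identical sequences of these genes make the split of reads between them uncertain. GPX2, a glutathione peroxidase, was at 9.03, 6.68 and 8.27 CPM against 15.3, 17.7 and 16.9. Related detoxifying enzymes (ALDH, CYP, CES, GST, UGT and SULT genes) were lower in 26 and higher in 4 of 49 (61.2% called, median −0.16). Their most abundant member, ALDH1A1, read 2435, 2340 and 2373 CPM against 2882, 3039 and 2999.

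Of 21 tested genes of foregut and lung lineage 4 were higher and 7 lower in the PRMT5 knockdown (19% and 33.3%, against 19.2% and 20.5% of all tested genes), with a median of −0.17. HNF4A, a transcription factor of liver and gut epithelium, read 21.5, 19.6 and 17.8 CPM against 41.1, 47.3 and 43.9, with 13.5 to 16.4 in the control, and was therefore above control in both and higher with the MEP50 hairpin (difference −1.17 ± 0.0757, edgeR adjusted p = 3.95e-16). AQP3, an airway water channel, was at 13.9, 13.7 and 13.2 against 26.3, 30.1 and 31 CPM. KLF5, an epithelial transcription factor, was at 71.3, 63.5 and 63 against 102, 112 and 105, below a control of 140.1 to 155 in both. Of 338 tested ZNF zinc finger genes, mostly repressors of transcription, 97 were higher and 16 lower in the PRMT5 knockdown (28.7% and 4.73%), with a median of 0.12. Against a fold of 1.2, 23 were higher and 5 lower, beside 697 higher and 779 lower of all 14582 tested genes. Their level in the libraries was 0.06, 0.05 and 0.06 with the PRMT5 hairpin, −0.03, −0.07 and −0.07 with the MEP50 hairpin and 0.0084 to 0.02 in the control.

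Genes of the machinery that PRMT5 is best known to methylate were nearly level between the knockdowns. Of 60 genes of the core spliceosome and SMN complex 13 were higher and 4 lower (28.3% called, against 39.7% of all genes), with a median of 0.03 and no difference above 0.43 in size. SNRPC, a U1 particle protein, was at 62.9, 63.5 and 69.2 CPM against 84, 89.8 and 90.2, and PRPF3, a tri-snRNP protein, at 111, 111 and 122 against 88.5, 83.1 and 89.7. Polycomb and histone methylation genes were divided, 11 higher and 12 lower of 55 (41.8% called), and BMI1 differed by −0.53 ± 0.0306 (edgeR adjusted p = 9.08e-18). Replication-dependent histones were lower in 10 and higher in 1 of 27 (40.7% called), by small steps such as 438, 419 and 451 against 515, 528 and 539 CPM for H1-4. Many of their mRNAs lack a poly(A) tail, which these rRNA-depleted libraries do not need.

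Mitochondrially encoded genes had a median difference of 0.53, but with wide spread between libraries. The 13 mRNA genes took 0.979%, 0.944% and 0.941% of gene reads in the MEP50 knockdown, 1.18%, 1.39% and 1.49% in the PRMT5 knockdown and 1.25% to 1.72% in the control. The MEP50 knockdown libraries were below all others. MT-ND5, a subunit of complex I, read 717, 697 and 690.5 CPM against 993, 1194 and 1284 with the PRMT5 hairpin (difference 0.72 ± 0.142, edgeR adjusted p = 0.00726). Of the 13 genes 6 passed (46.2%, against 39.7% of all tested genes), and none was lower in the PRMT5 knockdown. This count was 2 against a fold of 1.2, 13 in the fit without robust shrinkage, 11 in the fit of the 6 knockdown libraries, 12 in DESeq2 and 12 without the first control library, and 3 without the second or the third MEP50 or the third PRMT5 knockdown library. MALAT1, an abundant nuclear noncoding RNA, had 3897, 4351 and 4289 CPM against 3087, 3018 and 3078, with 4575 to 5621 in the control. Of 78 nuclear genes of the respiratory chain, 2 were higher and 27 lower (37.2% called), by at most 0.29.

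**Figure D5:**
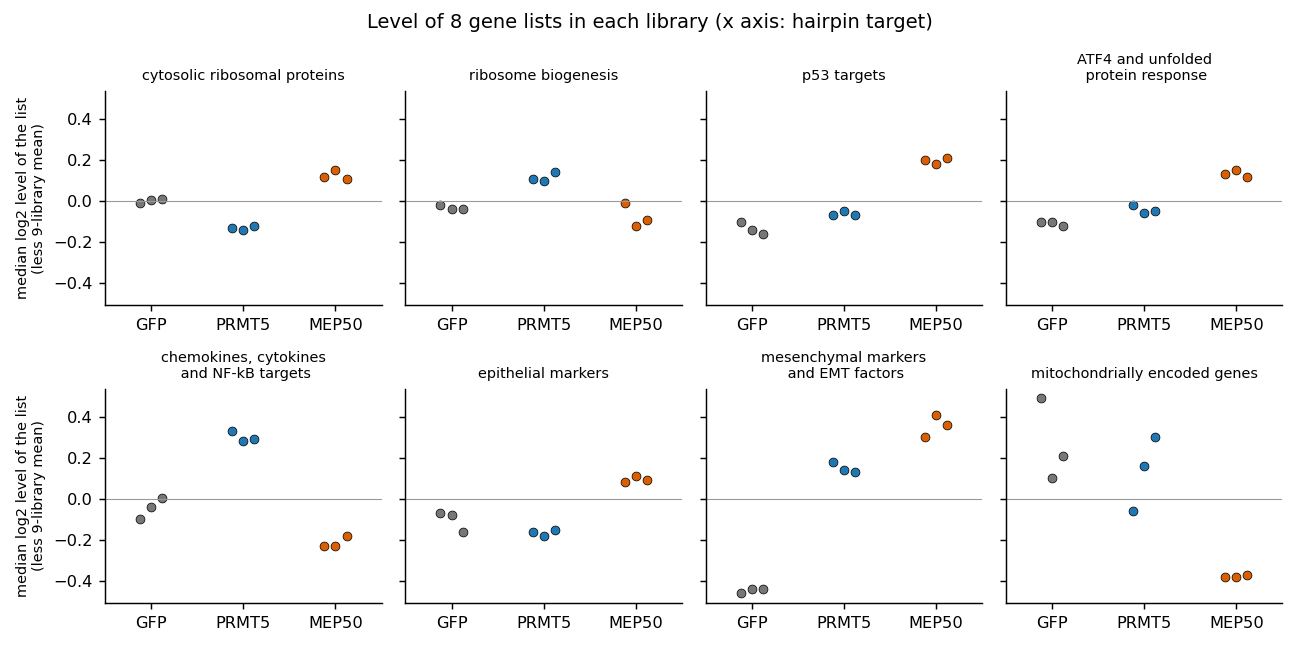
Level of 8 gene lists in each of the 9 libraries. The x axis gives the hairpin target and the y axis the median over the list of log2(CPM + 0.5) less each gene's mean over the 9 libraries; each point is a library. Ribosomal protein genes lie at −0.14 to −0.12 in the PRMT5 knockdown and 0.11 to 0.15 in the MEP50 knockdown, on either side of the control. The median of the epithelial markers lies above control in the MEP50 knockdown only, which does not hold for each marker.

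Highly expressed cytoskeletal and chaperone genes also separated the knockdowns. ACTG1, gamma actin, read 4121, 4279 and 4177 CPM with the PRMT5 hairpin against 3720, 3565 and 3528 with the MEP50 hairpin, while ACTB, beta actin, read 3293, 3273 and 3467 against 3755, 3866 and 3831. The 2 actins, often used as references, thus differed in opposite directions, by 0.22 and −0.19, and neither passed a test against a fold of 1.2. HSP90AA1, the inducible cytosolic HSP90, was at 5972, 5813 and 5989 CPM against 5088, 4895 and 4907, and did not pass that test either. Heat shock and DNAJ genes were higher in 25 and lower in 9 of 67 (50.7% called, against 39.7% of all tested genes, with a median of 0.08). Genes answering to hypoxia were divided, 9 higher and 11 lower of 38 (52.6% called), although ADM, a vasodilator peptide, and ERO1A, an oxidase of the endoplasmic reticulum, were 0.77 and 0.68 higher in the PRMT5 knockdown.

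Among 11999 tested protein-coding genes set in the order of the RefSeq table, 2 runs of 3 neighbours differed by at least 1.5-fold in one direction, both lower in the PRMT5 knockdown. At that fold 544 of all 14582 tested genes were called higher and 555 lower. Whether 2 runs are more than such numbers give without clustering was not tested. One run held SLC29A3, CDH23 and VSIR, which encode a lysosomal nucleoside transporter, a cadherin of hair cells and an immune checkpoint receptor, with differences of −1.24, −0.79 and −1.13. The other held SNORC, NGEF and INPP5D, with −0.79, −0.87 and −0.87. VSIR averaged 4.39 CPM with the PRMT5 hairpin, 9.63 with the MEP50 hairpin and 16.9 in the control.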

How the data were processed

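RNA of 9 libraries was compared in 3 groups of 3 taken from the labels. The authors deposited raw read counts, one integer for each Ensembl gene and library. The submitters' processing notes name Trim Galore, STAR, HTSeq and the hg19 build; their versions and the strand setting of the counting are not given in the sources used here. The 2 deposited tables of the authors' own comparisons were not used. The labels name biological replicates but not their cultures, so p-values measure the spread between these libraries.

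Of 51796 genes, 26748 had a read and 14582 passed edgeR's default low-count filter. The 5 summary lines that HTSeq appends entered no library size; reads in no gene were 11.9% to 14.5%. Counts were fitted once over all 9 libraries with edgeR 4.0.16 (TMM scaling, robust quasi-likelihood fit, R 4.3.3) and tested as PRMT5 knockdown minus MEP50 knockdown, with Benjamini-Hochberg adjustment over all tested genes at 0.05. The pipeline was tested on simulated data. Symbols came from a gene name table (36583 IDs matched), and start windows from RefSeq.

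Members, 48 gene lists and alternatives were chosen with earlier results of these data known. Genes were named by rule: both targets; the 12 largest log2 and 6 largest CPM differences each way with no overlap and at least 1 CPM; up to 3 called members a list; 4 each way with the control between the knockdowns; and 4 for each knockdown within 1.1-fold of control. A further 21, among them CXCL8, LIF, NFKB2, CCN1, CCN2, TGFB2, TGFBI, LTBP1, CLDN1, YWHAG, ASNS, SLC7A11, EREG, EGFR, MYC and FBL, and the start tracts, were chosen after values were seen, as were members that only complete a count. Lists not described had medians within 0.19 of 0 under every alternative. The alternatives comprised DESeq2 1.42.0, scaling by RLE, by upper quartiles or by library totals, other filters, the 6 knockdown libraries alone, a replicate block, thinned counts, a test against 1.2-fold, and each library left out.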

Additional observations from a re-analysis of the deposited data

Results flagged for a closer look

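Reads that fell outside annotated genes, which no comparison of genes uses, made up a larger share in both knockdowns than in the control libraries. The mean share was 14.2% ± 0.453 (SD, n = 3) in the PRMT5 knockdown and 13.2% ± 0.752 (SD, n = 3) in the MEP50 knockdown, against 12.1% ± 0.296 (SD, n = 3) in the control. The MEP50 knockdown ranged from 12.3% to 13.8%, and its lowest library was below the highest control library at 12.4%.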

How the results depend on the processing

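The 188 named genes had 3738 values under the 20 alternatives, as filters left some genes out of some. None of these values reversed a call, and 45 of the genes lost theirs under at least 1, most often in the test against a fold of 1.2. That test left 697 genes higher and 779 lower, and a filter at 1 CPM in 3 libraries left 142 genes at least 2-fold higher, in place of 224, as fewer genes of low level were tested. With library totals in place of TMM, 3159 genes were higher and 2656 lower; DESeq2 called 2575 and 2849. Leaving out 1 library at a time gave 2256 to 2768 genes higher, 2569 to 3077 lower, 196 to 235 at least 2-fold higher and 220 to 257 at least 2-fold lower. With a replicate block, 2775 genes were higher and 2984 lower. Same-numbered libraries deviated together by correlations of −0.0361 to 0.0517, and differently numbered ones by −0.0544 to 0.0518. Between the control and the MEP50 knockdown, same-numbered libraries gave 0.0517, 0.0442 and 0.0504, and the others −0.0462 to 0.00151. Such small values show no strong pairing by number and cannot exclude a weak one. Leaving out 1 knockdown library, an alternative chosen after seeing the data, gave differences of 0.6 to 1.35 percentage points in reads outside genes, against 1.03 with all. Of genes under 1 on the log2 CPM scale 13.5% were called, and the part of depth in this share was not tested.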
